A study of Mus musculus with 22 samples.

Results

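Besides Nr4a1 and Nr4a2, the genes removed in this study, a panel of 998 genes read in sections of mouse embryos held a further set of nuclear receptor genes, of which 8 are described here. The 10 names looked for were Nr4a3, Nr2f1, Nr2f2, Nr3c1, Nr1h2, Nr1h3, Rara, Rarb, Rarg and Rxra, and 8 of them are row names in the count tables, whereas Nr2f1 and Nr2f2 were not analysed here. Counts were made by CosMx spatial molecular imaging, in which single RNA molecules are read from probes hybridized to a tissue section and each molecule is assigned to the segmented cell that contains it. The labels place 13 sections in a Knockout embryo and 9 in a Wildtype embryo, which by the methods of the study were 1 Nr4a1-/-Nr4a2-/- and 1 Nr4a1+/+Nr4a2+/+ embryo at E10, untreated, from lines backcrossed to C57BL/6J. With 1 embryo per genotype, sections are repeated measurements of the same embryo, and every test between genotypes compares these 2 embryos. The sections also carry a number in their file names, 1 (7 and 4 sections) or 2 (6 and 5 sections), and no slide held both genotypes, so slide and embryo cannot be told apart. The section order along the embryo is not in the labels.

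Nuclear receptors are transcription factors, most of which are switched by a small lipid-soluble ligand. NR4A receptors bind DNA as monomers at an element called NBRE and are induced within minutes of many stimuli. NR4A3 belongs to the same subfamily as the pair removed here and is their closest relative. The glucocorticoid receptor (Nr3c1) waits in the cytoplasm on HSP90 chaperones until a steroid arrives. The liver X receptors (Nr1h2, Nr1h3) respond to oxysterols, and the retinoic acid receptors (Rara, Rarb, Rarg) respond to retinoic acid, which patterns the embryo and takes part in blood stem cell formation from the aorta. RXR (here Rxra) is the partner with which both of the latter bind DNA. Rarb is itself a classical retinoic acid target.

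The RefSeq promoter table (GRCm38.p6, 250 bases before to 50 bases after each start) held 13 promoters for 7 of the 8 genes. On both strands 3 motifs were searched: the half-site AGGTCA, the NBRE AAAGGTCA, which contains the half-site, and a direct repeat of GTTCA in which any 6 bases lie between both copies. They occur in 16.3%, 1.51% and 0.0761% of 32851 promoters. A match to any of the motifs was held by 4 of the 13 promoters, each of a different gene. The stretches with the direct repeat and the NBRE are shown because they are the element types through which retinoic acid receptors and NR4A receptors are known to act, and capitals mark the motif.
Rarb, chr14:16575477-16575576, minus strand: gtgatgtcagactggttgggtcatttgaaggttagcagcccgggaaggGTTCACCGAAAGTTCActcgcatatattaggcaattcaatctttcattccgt
Rxra, chr2:27709192-27709291, plus strand: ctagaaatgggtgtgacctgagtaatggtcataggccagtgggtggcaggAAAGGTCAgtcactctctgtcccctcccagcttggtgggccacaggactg
In Rarb the repeat lay at positions -52 to -37 from the start, and in Rxra the NBRE lay at -50 to -43. The remaining matches were half-sites in Rara (33 to 38), in Rarg (-225 to -220, minus strand) and a further one in Rxra (-87 to -82, minus strand). A match describes these letters and is not a measured binding site.

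A filter of 10 transcripts and 10 genes kept 37570 of 37575 cells. Section totals spanned 169027 to 887896 counts under the label Nr4a1-/-Nr4a2-/-, and 211614 to 820265 counts in the other embryo. None of the 231 pairs of sections held identical tables, and none of the 3410 cells that shared a name between sections had the same counts. In the genotype contrast neither targeted gene passed the test (Nr4a1 at a log2 fold change of -0.05 with adjusted p = 0.716, and Nr4a2 at 0.03 with adjusted p = 0.860, edgeR). Where their probes lie relative to the deleted parts is not stated, so this does not check the labels. A legend of the study also counts more sections for the Nr4a1+/+Nr4a2+/+ embryo, the opposite of the labels, so the direction of each genotype value rests on the labels and the group is named by its label throughout. Section 13, the smallest library labelled Nr4a1-/-Nr4a2-/-, stood apart for several receptors.

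How far each receptor stood above the dimmest probes was examined first. Rates are transcripts of a gene per 10000 transcripts of a section, and the reference is the average over the dimmest 5% of panel genes (50 genes, of which 48 were used since Nr3c1 and Rara were themselves among them). Probes of different genes can differ in efficiency, so the ratio says how far a gene stood above this floor and does not rank RNA levels between genes. Rxra, Nr1h3 and Rarg stood highest, with rates 3.72 ± 0.746, 3.34 ± 0.641 and 2.95 ± 0.325 times that of the dim genes (SD, n = 22 sections). Rarb and Nr1h2 followed at 2.47 ± 0.416 and 2.42 ± 0.379 times. Nr4a3 stood at 1.69 ± 0.324 times, next to its targeted relative Nr4a2 at 1.78 ± 0.283. Rara (1.14 ± 0.298) and Nr3c1 (0.928 ± 0.167) differed from the floor by less than the spread between sections. The median over the 8 receptors was 2.38 ± 0.267.

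Among neighbours in this order, Rxra and Nr1h3, Nr1h3 and Rarg, Rarb and Nr1h2, Nr4a2 and Nr4a3, and Rara and Nr3c1 differed by less than the larger SD of the pair. Rarg and Rarb, Nr1h2 and Nr4a2, and Nr4a3 and Rara differed by more. Counted from the dimmest gene, Nr3c1 took place 16, Rara 32, Nr4a3 187, Nr1h2 533, Rarb 553, Rarg 688, Nr1h3 764 and Rxra 807 of 998. The targeted Nr4a1 took place 20, with a ratio of 0.977 ± 0.0884. At the edge of the dim set, the brightest gene inside had 3.13 and the dimmest gene outside had 3.14 transcripts per 10000. The other 8 nuclear receptors of the panel lay within the range of these 8, from Esr1, the oestrogen receptor, at 1.20 ± 0.153 times the dim genes to Ppard, a fatty acid sensor, at 3.04 ± 0.393.

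**Figure D1:**
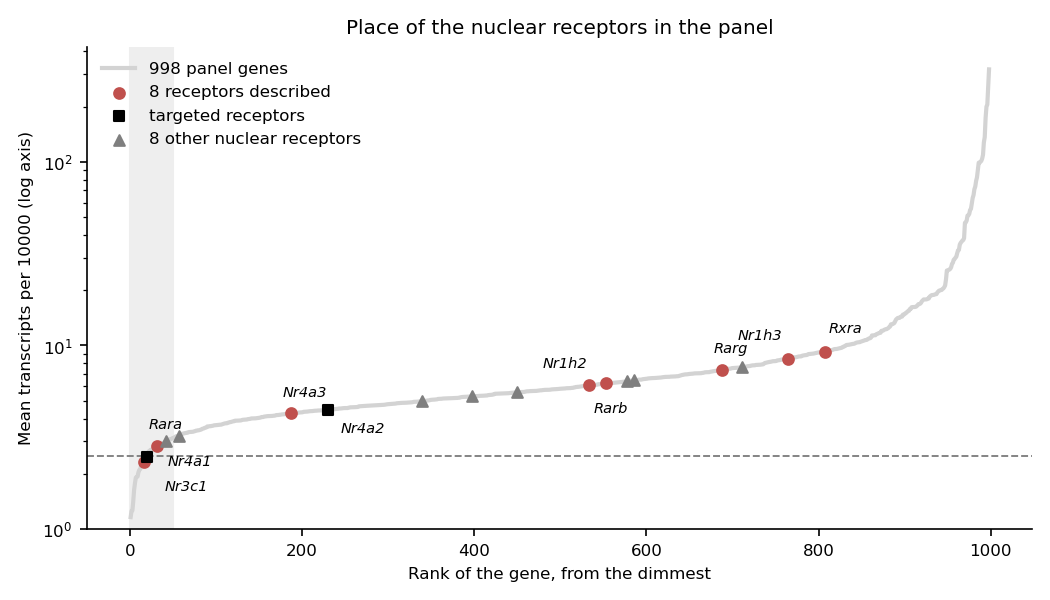
Mean transcripts per 10000 of each of the 998 panel genes over 22 sections (log axis) against its rank from the dimmest, with the 8 receptors in red, the targeted pair as black squares and 8 other nuclear receptors as grey triangles. The shaded band holds the 50 dimmest genes and the dashed line is the mean rate of the 48 used (2.51); Nr3c1, Rara, the targeted Nr4a1 and Esr1 lie in the band, and Rxra has the highest place of the receptors.

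Nr4a3 is the NR4A gene that was not targeted, and its level was compared between these 2 embryos, which cannot stand for the genotypes. Its lowest, median and highest rates were 2.66, 3.54 and 5.29 per 10000 in the sections labelled Nr4a1-/-Nr4a2-/-, and 4.24, 4.85 and 7.18 in the Nr4a1+/+Nr4a2+/+ sections. The groups overlapped, and section 17 was high among the Nr4a1+/+Nr4a2+/+ sections. The dim genes also had a lower share in the sections labelled Nr4a1-/-Nr4a2-/- (2.31 ± 0.136 against 2.81 ± 0.0804 per 10000), and over the dim genes Nr4a3 stood at 1.58 ± 0.314 and 1.84 ± 0.290 times. With TMM scaling in edgeR, its log2 fold change (Nr4a1-/-Nr4a2-/- label over Nr4a1+/+Nr4a2+/+) was -0.21 (95% interval -0.40 to -0.03, adjusted p = 0.125) and did not pass the test, and its sign would turn if the labels were exchanged. Without section 5, the highest of its group, the value was -0.26 and passed the test (adjusted p = 0.0342). In sections numbered 1 it was -0.10 (adjusted p = 0.694), and in those numbered 2 it was -0.33 (adjusted p = 0.0792).

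For the glucocorticoid receptor Nr3c1, the lowest, median and highest rates were 1.39, 2.26 and 2.88 per 10000 in the sections labelled Nr4a1-/-Nr4a2-/- and 1.94, 2.42 and 3.22 in the others. Every one of these lies near the dim genes, so the values say little about the receptor's RNA. Its log2 fold change was 0.09 (95% interval -0.13 to 0.30, adjusted p = 0.630).

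The liver X receptors had lower mean shares in the sections labelled Nr4a1-/-Nr4a2-/-, as did the dim genes. Nr1h3, the form of macrophages and liver, had 3.08, 7.59 and 9.85 transcripts per 10000 (lowest, median and highest) in the sections labelled Nr4a1-/-Nr4a2-/-, and 8.83, 9.58 and 12.4 in the Nr4a1+/+Nr4a2+/+ sections. The groups overlapped, and section 13 was at the bottom. Nr1h2, the widely expressed form, had 4.02, 5.59 and 6.57 against 5.78, 6.55 and 8.56 per 10000. With TMM scaling, neither difference passed the test (log2 fold change -0.18 and adjusted p = 0.283 for Nr1h3, -0.07 and adjusted p = 0.654 for Nr1h2, edgeR). Without section 13, Nr1h3 was at -0.13 (adjusted p = 0.264). The direction depended on the number in the file names: Nr1h3 was at 0.019 in sections numbered 1 and at -0.39 in those numbered 2, and Nr1h2 at -0.18 and 0.049. The mean rate of Nr1h3 under the label Nr4a1-/-Nr4a2-/- was 8.38 in sections numbered 1 and 6.11 in those numbered 2, against 9.93 and 10.2 in the other embryo.

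Among the retinoic acid receptors, Rara lay near the dim genes in both embryos, with rates of 1.75, 2.84 and 4.34 (lowest, median, highest) against 1.92, 2.83 and 3.63 per 10000. Rarb had 2.37, 5.65 and 7.89 in the sections labelled Nr4a1-/-Nr4a2-/- against 6.33, 7.004 and 7.19 per 10000. The Nr4a1+/+Nr4a2+/+ sections thus lay within a narrow band for Rarb: their variance was 0.755 times that of counting alone, where the panel median was 4.03. In the sections labelled Nr4a1-/-Nr4a2-/- it was 10.3 times, against a panel median of 5.03, and section 13 was the lowest value. Rarg, the form of skin and cartilage precursors, had 5.74, 7.29 and 8.26 against 6.37, 8.18 and 9.36 per 10000, and section 13 did not stand apart for it (7.34). The log2 fold changes of Rara, Rarb and Rarg were 0.27, 0.02 and 0.05 (adjusted p = 0.212, 0.910 and 0.726, edgeR). For Rara the 95% interval ran from -0.02 to 0.57, and the value was 0.06 in sections numbered 1, 0.49 in those numbered 2 (adjusted p = 0.892 and 0.0540) and 0.0063 by library size alone. Rarb was at 0.16 in sections numbered 1, at -0.13 in those numbered 2 and at 0.07 without section 13.

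Rxra had 4.08, 9.57 and 11.9 transcripts per 10000 (lowest, median, highest) in the sections labelled Nr4a1-/-Nr4a2-/- and 6.55, 9.86 and 10.5 in the others. Section 13 was the lowest of the first group, and section 21 the lowest of the second. Its share was therefore about the same in both embryos while the panel median by library size was lower under the label Nr4a1-/-Nr4a2-/-. The log2 fold change with TMM scaling was 0.23 (95% interval 0.00 to 0.46, adjusted p = 0.193). Without section 13 it was 0.29 and passed the test (adjusted p = 0.0119), so 1 library decided this call.

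**Figure D2:**
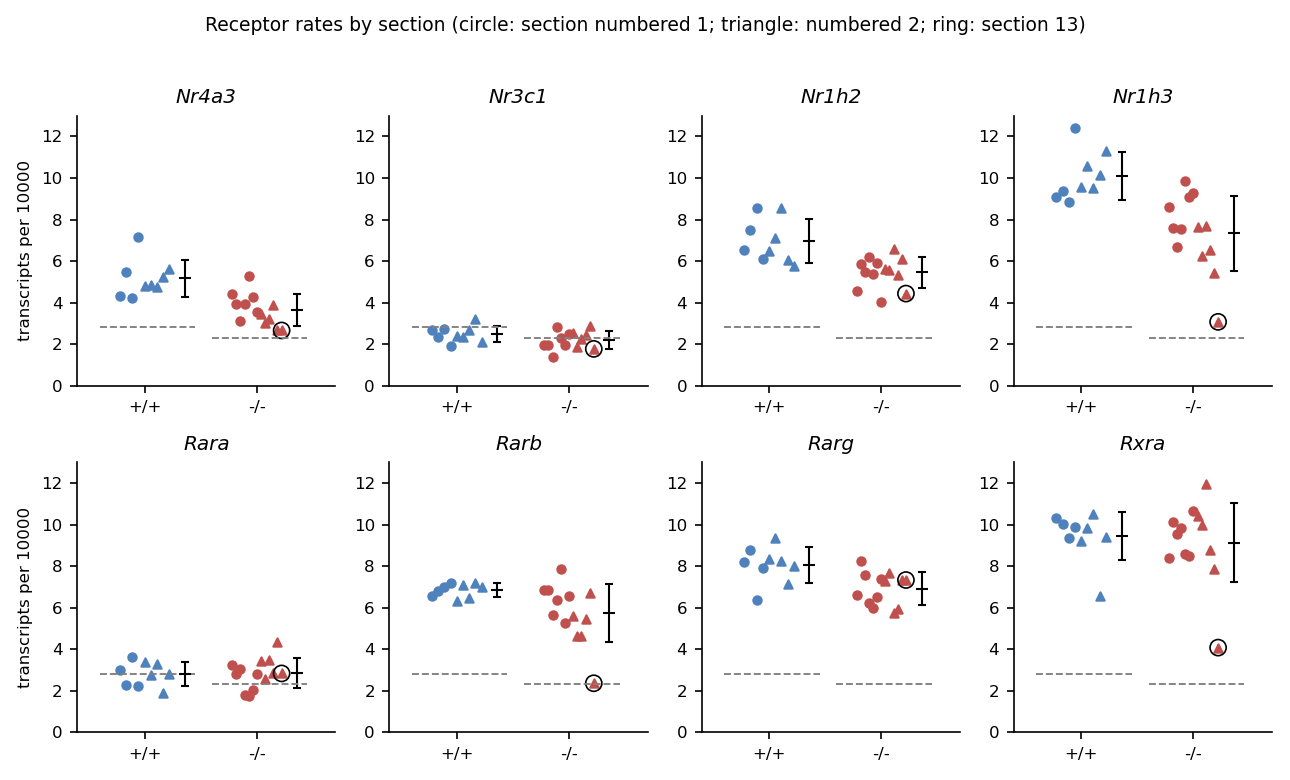
Transcripts per 10000 of each receptor in each section, all cells, with Nr4a1+/+Nr4a2+/+ sections in blue and sections labelled Nr4a1-/-Nr4a2-/- in red; the bar beside each group is the mean ± SD (n = 9 and 13), the dashed line the mean of the dim genes in that embryo, and the ring marks section 13. Nr3c1 and Rara lie around the dashed line in both embryos, and section 13 is the lowest red point for Nr1h3, Rarb and Rxra.

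Over the whole genotype contrast, 0 of the 8 receptors passed an adjusted p of 0.05 in edgeR, where 12.5% of the 998 genes did (9.82% up and 2.71% down). At an unadjusted p under 0.05 there was 1 receptor, Nr4a3, and DESeq2 called 0. The median log2 fold change of the receptors was 0.03, against -0.03 over all genes. The scaling set the picture: by library size alone the panel median was -0.30, 77.9% of the genes were called (72% lower and 5.81% higher), and 4 receptors were among them (Nr4a3 at -0.49, Nr1h3 at -0.45, Nr1h2 at -0.34 and Rarg at -0.22, which had 0.05 with TMM). With that scaling the median of the receptors was -0.23, and 4 of 8 is below the share of the panel. Scaled to the dim genes, 0 receptors were called.

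**Figure D3:**
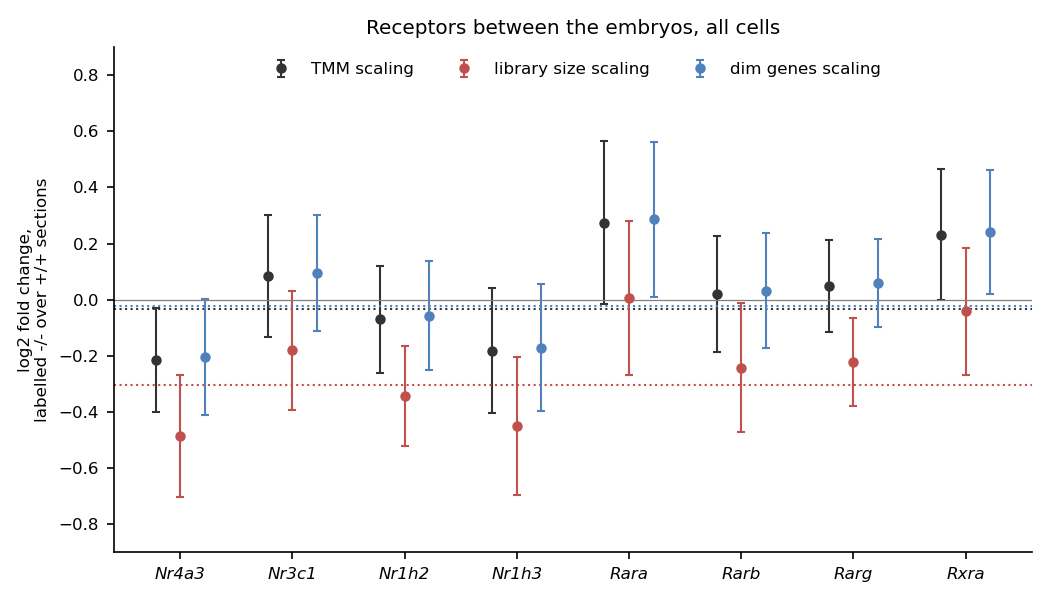
Log2 fold change of each receptor between sections labelled Nr4a1-/-Nr4a2-/- and Nr4a1+/+Nr4a2+/+ sections, all cells, with bars for the 95% interval under 3 scalings; the dotted lines are the medians of the 998 genes under the same scalings. Under library size scaling all points shift down with the panel (-0.30), and under TMM the point of Nr4a3 (-0.21) is the lowest.

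Genes that work with these receptors were read from lists in the same contrast, where 9.82% of the panel was called up and 2.71% down. By library size alone these panel shares were 5.81% and 72%, and the library size counts below stand beside them. The lists were chosen with earlier results of these data known, so their counts are a description and no evidence about the lists. Of 4 chaperones and partners of the glucocorticoid receptor, 3 rose: Hsp90ab1 by 1.28, Hsp90aa1 by 0.94 and Ptges3, the p23 cochaperone, by 0.34 on the log2 scale (adjusted p = 1.56e-06, 2.27e-05 and 0.00718, edgeR). By library size alone 2 of the 4 rose. In endothelial-like cells, where 4.18% of 335 genes were called, Hsp90ab1 and Hsp90aa1 rose (0.86 and 0.48, adjusted p = 1.61e-06 and 0.0294), Ptges3 was at 0.04 (adjusted p = 0.930), and of the other genes that rose in all cells (Fasn, Fabp5, Hdac1 and Hdac3) 0 were called. The receptor itself was at the floor in both embryos. Of 5 genes linked to liver X receptors, 1 rose, the fatty acid synthase Fasn (0.79, adjusted p = 5.78e-04), while Srebf1, its regulator, had 0.29 (adjusted p = 0.0549) and Apoe 0.19 (adjusted p = 0.520). Of 4 genes linked to fatty acid sensing receptors, Fabp5, a fatty acid carrier, rose (0.54, adjusted p = 0.00141), while Fabp4 was at -0.18 and Adipoq at -0.20 (adjusted p = 0.109 and 0.123). Of 8 immediate early genes, the class to which NR4A genes belong, 2 fell and 0 rose: Fos was at -0.30 and Ier3 at -0.27 (adjusted p = 0.0408 and 0.00722). By library size alone 6 of these 8 were called lower, and so were 2 genes each of the lists linked to liver X receptors and to fatty acid sensing, where 1 each was called higher. Of 4 corepressor deacetylases, Hdac1 (0.29, adjusted p = 0.0443) and Hdac3 (0.39, adjusted p = 0.00198) rose, where by library size alone 0 rose and 1 fell. Of the 2 retinoid-responsive genes and the 8 other nuclear receptors 0 were called, where by library size alone 2 and 7 were called lower. Rarres1, of the retinoid-responsive genes, was at -0.22 (adjusted p = 0.0544). Among those 8, Rxrb, a second RXR gene, had the lowest adjusted p, with a log2 fold change of 0.22 (adjusted p = 0.130).

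Cells were then grouped by marker genes, none of which is a receptor, to ask in which cells the receptors were read. A cell passed a gate with at least 3 transcripts of its markers, from at least 2 marker genes (1 for erythroid-like cells), and at least 3 times the number that its total predicted, and 5812 cells (15.5%) passed one. The gates held 802 endothelial-like, 2570 erythroid-like, 165 macrophage-like, 478 smooth-muscle-like, 302 sclerotome-like, 859 mesenchyme-like, 360 epithelial-like and 276 neural-like cells. All markers of each gate were at least 2-fold higher in it, except that 3 of 5 were in mesenchyme-like cells, where the lowest was at 0.95-fold. The gates select on these same markers, so this is largely built in and does not check what the groups are. The rates below are pooled over the cells of a group in an embryo, and their intervals cover counting error only. Whether transcripts of neighbouring cells fell within an outline was not tested, and fewer transcripts per cell cannot be told apart from a mix of cells within a gate.

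Endothelium is the tissue from which blood stem cells arise. In endothelial-like cells Nr4a3 was read at 3.60 per 10000 in the embryo labelled Nr4a1-/-Nr4a2-/- and at 3.68 in the other, beside 3.70 and 5.07 in ungated cells. Rxra was at 9.02 and 7.70, beside 9.91 and 10.0 in ungated cells. Against the other cells of the same section, with the section as a block, 0 of the 8 receptors were called in edgeR (0 at an unadjusted p under 0.05), where 21.1% of the panel was. The log2 differences ran from -0.26 for Rara (95% interval -0.65 to 0.14) to 0.10 for Nr1h2 (-0.15 to 0.35). Between the embryos, 3 receptors had enough counts in endothelial-like cells to pass the filter, and 0 were called, where 4.18% of 335 genes were. They were Rxra (0.26, 95% interval -0.22 to 0.74), Nr1h3 (0.03, -0.49 to 0.55) and Rarg (-0.08, -0.55 to 0.39). With the filter removed, Nr4a3 was at 0.05 with an interval from -0.64 to 0.75, so a difference in either direction within that interval remains compatible with these counts.

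Erythroid-like cells, gated on haemoglobin genes and the erythropoietin receptor Epor, had lower rates of Rara, Rarb and Rxra than the other cells of the same section. Rxra was lower in 13 of 13 sections labelled Nr4a1-/-Nr4a2-/- and in 8 of 9 others, with means of 6.74 ± 1.92 against 9.34 ± 1.91 and of 7.80 ± 0.982 against 9.69 ± 1.296 per 10000 (SD over sections). The dim genes were also lower in 13 of 13 sections labelled Nr4a1-/-Nr4a2-/- (2.00 against 2.33 per 10000), and in 4 of 9 others (2.90 against 2.79). Rarb was lower in 11 of 13 and 7 of 9 sections, at 4.31 ± 1.78 against 5.90 ± 1.42 and at 5.70 ± 1.35 against 6.99 ± 0.385. Rara was lower in 11 of 13 and 7 of 9 sections and was at the floor there: pooled, 1.95 and 2.15 per 10000 beside 1.97 and 2.93 for the mean dim gene. Nr1h3 ran the other way, higher in 7 of 13 and 6 of 9 sections.

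With TMM scaling the log2 differences were -0.43 for Rara, -0.31 for Rarb, -0.29 for Rxra and 0.25 for Nr1h3 (adjusted p = 0.00305, 0.00256, 6.83e-04 and 0.00337, edgeR with section as a block). These 4 of 8 (1 up and 3 down) stand beside 55.3% of the panel called in the same contrast (33.8% up and 21.5% down), so the share called is near the background. By library size alone Nr1h3 was at 0.14 and did not pass (adjusted p = 0.143). Within the embryo labelled Nr4a1-/-Nr4a2-/- Rara did not pass (-0.40, adjusted p = 0.0753), and within the other Nr1h3 did not (0.15, adjusted p = 0.196). In sections numbered 1, Rxra passed (-0.43, adjusted p = 0.00137), while Rara (-0.18, adjusted p = 0.442), Rarb (-0.23, adjusted p = 0.117) and Nr1h3 (0.26, adjusted p = 0.0765) did not. In those numbered 2, Rara (-0.75), Rarb (-0.52) and Rxra (-0.28) passed, and Nr1h3 (0.12, adjusted p = 0.388) did not. Haemoglobin took between 17.7% and 30.1% of erythroid-like counts per section under the label Nr4a1-/-Nr4a2-/- and between 8.40% and 13.5% in the other embryo. With the gate's markers left out of the totals, the panel median moved from 0.07 to 0.22, and 533 of 998 genes were called higher and 146 lower. Rara, Rarb and Rxra were at -0.27, -0.16 and -0.13 and no longer passed (adjusted p = 0.0554, 0.130 and 0.111, edgeR). Nr1h3 passed (0.41, adjusted p = 6.64e-06), as did Nr1h2 (0.25, adjusted p = 0.00728) and Nr4a3 (0.25, adjusted p = 0.0287), all higher. Measured from the panel median, Rara was at -0.50 and Rxra at -0.36 with both totals. A change of totals moves all genes by nearly the same amount, so this agreement was fixed in advance and is no further evidence.

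**Figure D4:**
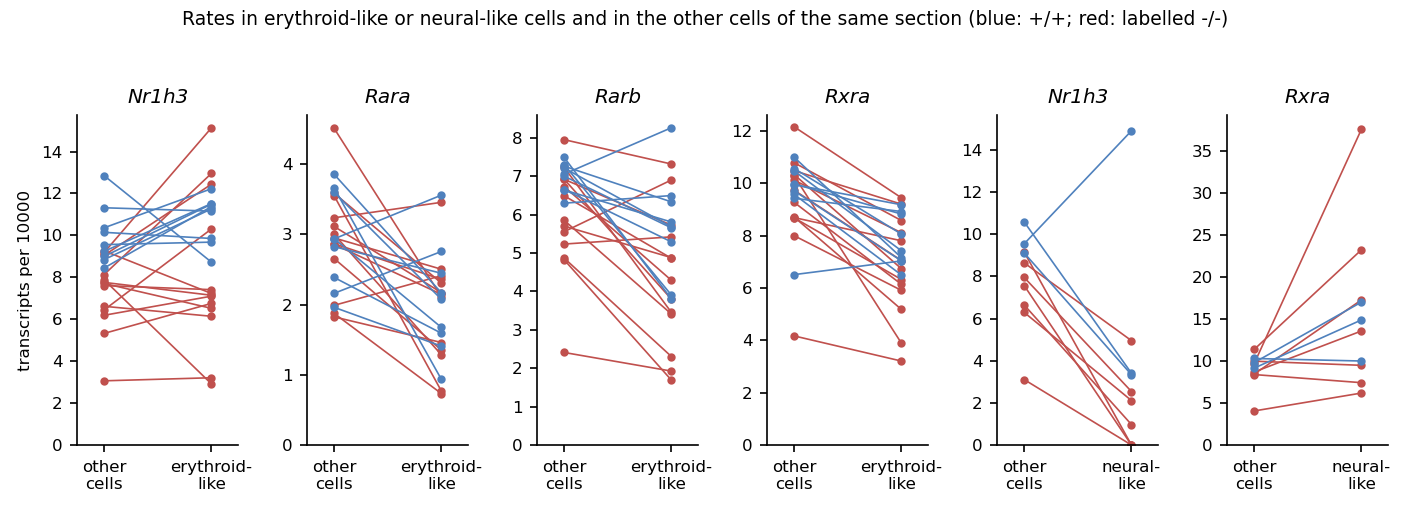
Transcripts per 10000 of a receptor in erythroid-like (first 4 panels) or neural-like cells (last 2 panels) and in the other cells of the same section, with 1 line per section holding at least 10 cells of the group, blue for Nr4a1+/+Nr4a2+/+ and red for the label Nr4a1-/-Nr4a2-/-. The axes differ between panels. Lines of Rxra fall in 21 of 22 sections for erythroid-like cells, and Nr1h3 in neural-like cells falls in 9 of 10.

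In neural-like cells, whose gate includes Sox2 and Hes5, Nr1h3 had a lower rate than in other cells. Its pooled rate was 2.27 per 10000 (13 transcripts, 95% interval 1.21 to 3.88) in the embryo labelled Nr4a1-/-Nr4a2-/-, beside 7.49 in ungated cells. It was lower in 7 of 7 sections labelled Nr4a1-/-Nr4a2-/- and in 2 of 3 others, and the dim genes were lower in 7 of 7 (1.62 against 2.23 per 10000) and in 0 of 3. In the other embryo the pooled rate was 8.47 (also 13 transcripts, 4.51 to 14.5), an interval that holds the 10.0 of ungated cells. Within the embryos, the log2 difference from other cells was -1.56 under the label Nr4a1-/-Nr4a2-/- (adjusted p = 0.0413) and -0.69 in the other (adjusted p = 0.895). The difference between these, the interaction with genotype, was -0.92 (95% interval -2.90 to 1.05, adjusted p = 0.872). Over both embryos the log2 difference was -1.40 (95% interval -2.26 to -0.53, adjusted p = 0.0200, edgeR), with a panel median of -0.44, and 1 of 8 receptors was called, where 10.3% of the panel was (7.52% down and 2.81% up). The call was lost without section 6, 9, 10, 11, 13, 14 or 19, each left out on its own (values from -1.60 to -1.18, adjusted p up to 0.131), and in the sections numbered 1 or 2 alone (-1.83 and -1.08, adjusted p = 0.429 and 0.265). Rarg stood at -1.04 (adjusted p = 0.0958).

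Rxra had its highest rate in these same neural-like cells in both embryos. It was read at 17.5 per 10000 (100 transcripts, 95% interval 14.2 to 21.3) under the label Nr4a1-/-Nr4a2-/- and at 13.0 (20 transcripts, 7.96 to 20.1) in the other embryo. The log2 difference from other cells was 0.63 (95% interval 0.04 to 1.23), 1.08 above the panel median, and did not pass the test (adjusted p = 0.179). Over sections the rate ran from 6.20 to 37.7 and from 10.01 to 17.04 per 10000.

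In the other gated groups 0 receptors were called in edgeR. The background was 3.11% in macrophage-like, 12.2% in smooth-muscle-like, 2.91% in sclerotome-like, 10.3% in mesenchyme-like and 4.51% in epithelial-like cells. At an unadjusted p under 0.05 there was 1 receptor in these groups, Rxra in sclerotome-like cells at -0.46 (adjusted p = 0.421). Nr1h3, known from macrophages, had its highest pooled rate of all groups in macrophage-like cells in both embryos, 9.28 (95% interval 6.22 to 13.3) and 13.1 (9.06 to 18.3) per 10000. The interval for each still holds the rate of ungated cells (7.49 and 10.0). Of the 4 Nr4a1+/+Nr4a2+/+ sections with enough macrophage-like cells, 1 was higher than its other cells (section 18, at 27.3) and 3 were lower (8.01 to 8.88 per 10000). Under the label Nr4a1-/-Nr4a2-/- 2 of 2 sections were higher (mean 9.18 against 6.96). Over the 64 pairs of receptor and cell group, 5 were called with edgeR (7.81%, against 15% of all pairs of panel gene and cell group). DESeq2 called 7 of the 64, but its share over all pairs was not computed, so this count has no background.

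**Figure D5:**
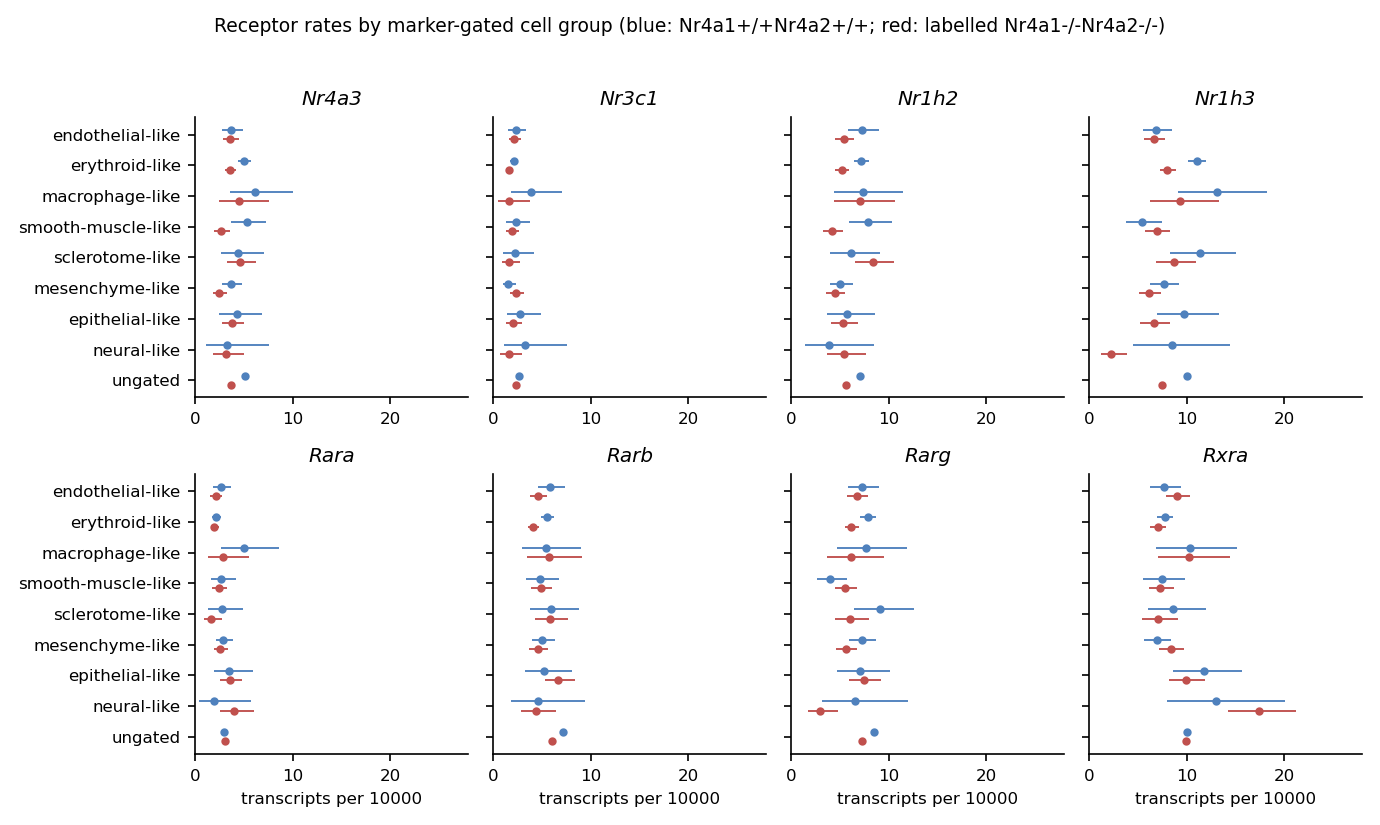
Pooled transcripts per 10000 of each receptor in 8 marker-gated cell groups and in ungated cells, with Nr4a1+/+Nr4a2+/+ in blue and the label Nr4a1-/-Nr4a2-/- in red; bars are exact 95% Poisson intervals, which cover counting error only. Rxra in neural-like cells (17.5 and 13.0) has the highest pooled rate of that receptor in both embryos.

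Whether a receptor's place among the cell groups differed between the embryos was tested by an interaction of group and genotype. Of the 64 pairs, 0 were called in edgeR and 0 in DESeq2, and 0 had an unadjusted p under 0.05, where 0.2% of the panel was called for endothelial-like, 0.501% for erythroid-like, 1.5% for mesenchyme-like, 0.401% for neural-like and 0% for the other groups. In erythroid-like cells, the best measured group, the interaction was 0.04 for Rxra (95% interval -0.25 to 0.34), -0.04 for Rarb (-0.40 to 0.33) and 0.10 for Rara (-0.42 to 0.61). Between the embryos in erythroid-like cells alone, 6 receptors passed the filter and 0 were called (0 at an unadjusted p under 0.05), where 3.54% of 961 genes were.

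The genes most like each receptor across the 8 gates and the ungated cells of both embryos were named by Pearson's r of log2 rates over 18 points. For Nr4a3 they were Il6ra (0.83), Stat6 (0.82) and Nr1h2 (0.82). For Nr1h3 they were Ccl26 (0.93), Fgf8 (0.92) and Fcgr4 (0.91). For Rxra they were Cenpf (0.86), Ccnd1 (0.82) and Hes5 (0.81), the last of which is a marker of the neural-like gate. For Rarb they were Ifitm2 (0.74), Cpa3 (0.71) and Bmp7 (0.70). Rarg was led by Krt4 (0.85), Rara by Csk (0.79), Nr3c1 by Fas (0.83) and Nr1h2 by Nr4a3 (0.82). The points of an embryo share sections, depth and the panel-wide shift between embryos, so these values describe and carry no test.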

How the data were processed

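The authors segmented cells and assigned transcripts with AtoMx, and deposited 1 table per section of whole-number counts of 998 genes per cell, without normalization. The methods describe fresh frozen tissue and a mouse panel, where a label protocol names paraffin, and the methods were followed. The authors' filter on cell area was not applied. Labels gave the groups (13 Knockout and 9 Wildtype sections). A legend of the study counts more Nr4a1+/+Nr4a2+/+ than Nr4a1-/-Nr4a2-/- sections, the opposite of the labels, and this was not resolved, so the direction of every genotype value rests on the labels. Cells under 10 transcripts or 10 genes were left out. The total counts set the precision. The members and lists were chosen with earlier results of these data known. Gates used markers with a Poisson tail under 0.001, and cells passing several went to the lowest tail. Of the neural-like markers, 3 were in the tables. Counts were summed per section, and per section and group with at least 10 cells. Tests used edgeR 4.0.16 in R 4.3.3 (TMM, filterByExpr, robust quasi-likelihood fit, Benjamini-Hochberg over all genes tested, threshold 0.05), with section as a block for cell groups. Alternatives used DESeq2 1.42.0 and limma 3.58.1 (voom, random block). Intervals came from the fit's standard error and t distribution. Nothing says that sections are separate samples of a genotype, so genotype p-values judge the difference between 2 embryos against the spread between their sections. Cell-group p-values judge differences within sections against how far these vary between sections of the same 2 embryos. Named genes were the receptors, the targeted pair, 8 other nuclear receptors, called genes of the fixed lists and the 3 most similar genes per receptor (log2 rate with a pseudocount of 0.5). Fixed-list genes below the threshold that are named were chosen after their values were seen. Some genes of these lists and gates are not reported here by name. Rates and motifs used Python 3.11.15, numpy 2.4.6 and pandas 2.3.3. The fits were also run on simulated counts with known changes, and the outcome is not reported here.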

Additional observations from a re-analysis of the deposited data

Results flagged for a closer look

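Of 24 sets of 9 sections that were checked for a value standing apart from the rest (Dixon's test, all in the Nr4a1+/+Nr4a2+/+ embryo), 4 held one, and chance flags about 1 set in 20. Nr4a3 in all cells stood at 7.18 per 10000 in section 17, where the other 8 sections lay between 4.24 and 5.60. Rxra in all cells stood at 6.55 in section 21, below the range from 9.19 to 10.5 of the others. In endothelial-like cells, Nr3c1 stood at 9.02 in section 21 against at most 2.50 elsewhere, and Rarg at 12.1 in section 19 against at most 8.38. The causes were not tested.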

How the results depend on the processing

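No paired analysis was possible because the section numbers are unique to a group, which holds for the genotype contrasts (the cell-group contrasts had section as a block). In all cells, 4 receptors were called by library size alone, and leaving out each section in turn gave 0 to 1 (1 without section 5, Nr4a3, or without section 13, Rxra). The other alternatives gave 0, in endothelial-like cells as well, also on leaving out each section (0 to 0). Signs turned for the following values, none called in the main setting. By library size, Nr3c1 was at -0.18, Rarb at -0.24, Rarg at -0.22 and Rxra at -0.041. With sections numbered 1 only, Nr1h3 was at 0.019, and with those numbered 2, Nr1h2 was at 0.049 and Rarb at -0.13. With the number as a random block Rarb was at -0.0042, and leaving out each section gave it -0.015 (without section 5) to 0.073. In endothelial-like cells, Rarg was at 0.12 scaled to the dim genes and at 0.0090 without a filter, and Nr1h3 passed the filter in 11 of 22 fits that leave out a section, with -0.042 to 0.061 (below 0 without section 3, 4, 7, 12, 16 or 22), and was at 0.44 in sections numbered 1. In the cell-group contrasts, 10 of 64 pairs were called by library size, 1 of 56 with sections numbered 1 only and 3 of 64 with those numbered 2, against 5, where 19%, 9.13% and 8.83% of all gene and group pairs were called. The pairs that library size added were Nr3c1 in erythroid-like, Rxra in smooth-muscle-like, and Nr4a3, Nr1h3, Rarb and Rxra in mesenchyme-like cells, all lower. The interaction count was 0 under all 10 alternatives. The median receptor stood at 2.00 times the dimmest 10% of genes instead of 2.38 times the dimmest 5%. Gate-marker totals, a dim set without gate markers and Nr4a1, and leaving out sections in the cell-group contrasts were chosen after seeing the data. Low counts limit every cell-group value outside erythroid-like cells. The causes were not tested.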
